A study of Drosophila melanogaster with 9 samples.

Results

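Metallothioneins are very small, cysteine-rich proteins that bind copper, zinc and cadmium, and in the fly their genes are switched on by MTF-1, a zinc finger transcription factor that responds to metal load. They are known above all for copper and cadmium detoxification in the gut, and through their thiol groups they are also regarded as scavengers of reactive oxygen species. The members described here are the probe sets that the array annotation assigns to MtnA, MtnB, MtnC, MtnD, MtnE or MTF-1. The 6 listed genes gave 5 probe sets, 1 each for MtnA, MtnB, MtnC, MtnD and MTF-1, out of 18769 probe sets in all. MtnE has no probe set under its name in that annotation and was not analysed here. It lies directly beside MtnD in the RefSeq gene order of the Release 6 assembly.

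Adults of the wild type stock Canton-S were profiled as whole flies on the Affymetrix Drosophila Genome 2.0 array, which measures a transcript with a set of short oligonucleotide probes. Males and females, 25 per exposure and 5 to 6 days old, spent 2.5 hours in constant hypoxia (CH) at 1% O2, in intermittent hypoxia (IH), where 4 min at 1% O2 took turns with 4 min at 21% O2, or in normoxia (NC). Per the study's methods the gas also needed time to change between these levels, longer on the way down than on the way up, so a full IH cycle outlasted the periods at the set levels. Each treatment had 3 arrays, numbered 1 to 3 as in the sample labels. The labels do not say whether arrays of one treatment came from separate exposures, so p-values measure the spread between these arrays, which may be technical. RNA came from whole pooled flies of both sexes, so fewer cells of a type and less RNA per cell cannot be told apart.

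Signals are linear intensities normalized by the authors. The brightness of a probe set depends on its probes, and for that reason signals are compared between treatments and not between genes. Markers of 7 tissues checked the whole-fly label, and 38 of the 39 measured markers had a mean signal above 100. The exception was Fbp1, a fat body gene. Of all probe sets, only 21.6% to 25.8% lay under 100 on an array. Most probe sets pass this limit, so the check is a weak one. The median signal of an array was 594 to 823. Control probe sets for 18S rRNA averaged 8.03 to 9.65 (log2 signal) in CH and 6.74 to 10.5 in IH, against 6.51 to 7.23 in NC, so the CH arrays and NC arrays did not overlap. The part of this difference in the results below was not tested.

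No member was called in any comparison when limma was run with the study's limits on false discovery rate, fold and direction. The study used VAMPIRE instead, and its lists include MtnD for IH and MtnC for CH. The absence of calls is thus a result of limma and not of the study's own test. A probe set counted as changed when its limma p, adjusted by Benjamini-Hochberg for all 18769 probe sets tested, was under 0.05, its fold was above 1.5 or below 0.67, and the 3 arrays of the treatment named first all fell on the same side of the other treatment's mean. Fold changes are on the scale of log2(signal + 16), and the comparisons of CH and of IH share the NC arrays. By these limits 0 of 5 member probe sets were called in CH against NC, where 0.0213% of all probe sets were called, 0 of 5 in IH against NC (background 0%) and 0 of 5 in CH against IH (background 0.0373%). At an unadjusted p under 0.05 with the same fold and direction limits, MtnC was lower in CH than in NC (1 of 5 members, where 1.33% of probe sets were lower), MtnD was higher in IH than in NC (1 of 5, background 1.21%), and MtnD was lower in CH than in IH (1 of 5, background 1.02%). The members did not share a direction. Their median log2 fold change was -0.0027 in CH against NC, beside 0.01 for all probe sets, and 0.07 in IH against NC, beside -0.02. In CH against IH it was -0.08, beside 0.05.

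**Figure D1:**
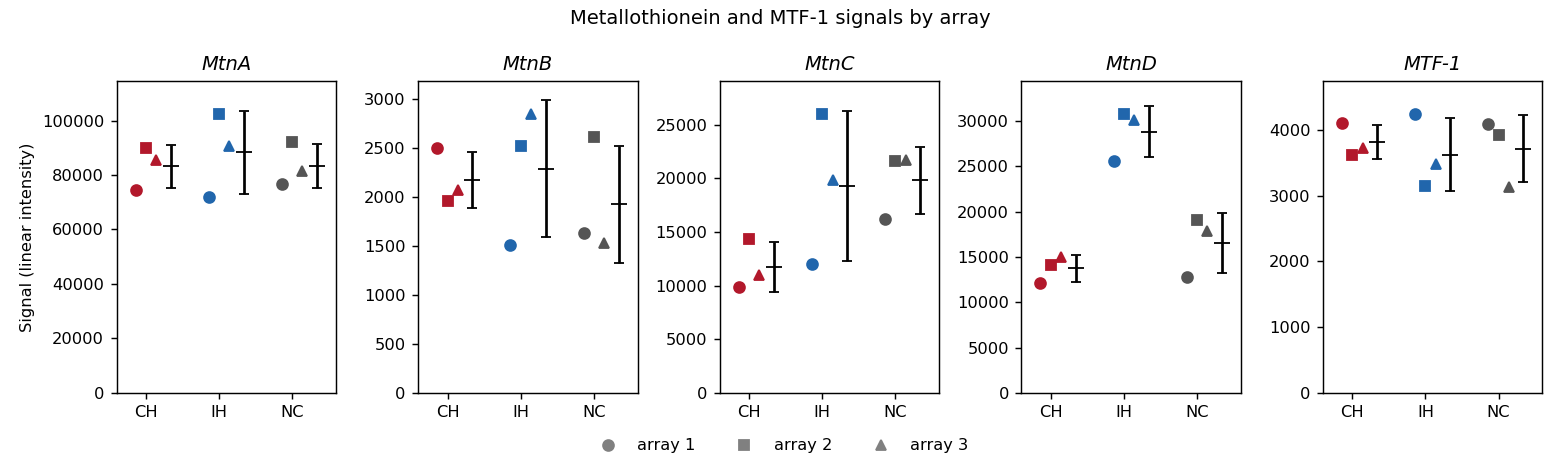
Signal (linear intensity, y axis from 0) of each member on the 3 CH, 3 IH and 3 NC arrays, with the symbol giving the array number and the black bar the mean ± SD. MtnD in IH lies at 25590 to 30735, above every CH and NC array, and MtnC in CH lies at 9867 to 14323, below every NC array.

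MtnD, a metal-binding metallothionein, had the smallest unadjusted p of the members, and its difference lay in IH. Its signal was 25590, 30735 and 30137 on the IH arrays, against 12806, 19036 and 17895 on the NC arrays. The dimmest IH array was brighter than the brightest NC array, as was the case for 2.63% of all probe sets. The means were 28821 ± 2814 in IH and 16579 ± 3317 in NC (SD, n = 3 arrays each), which gave a log2 fold change of 0.81 with a standard error of 0.20, or 1.76-fold. It did not pass over all probe sets (unadjusted p = 0.00351, adjusted p = 0.907 from limma), and 68 probe sets had a smaller p. An exact permutation test of these arrays gave a two-sided p of 0.1, the smallest that 3 arrays against 3 allow. Between arrays of the same number, the log2 difference of IH from NC was 1.00, 0.69 and 0.75 for numbers 1, 2 and 3. MtnD is among the genes the study listed for IH from these same arrays, so its direction is not independent evidence.

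In CH the MtnD signal was 12117, 14127 and 14979, which overlapped the NC range, with a mean of 13741 ± 1469 (SD, n = 3). The log2 fold change of CH against NC was -0.26 (95% interval -0.72 to 0.21, adjusted p = 1.00 from limma). The 2 hypoxia patterns were compared directly, and all 3 CH arrays lay below all 3 IH arrays, which 2.79% of probe sets did. The log2 difference of CH from IH was -1.07 with a standard error of 0.20, so the signal in IH was 2.10 times that in CH. This also missed the threshold (unadjusted p = 6.58e-04, adjusted p = 0.260 from limma), and 43 probe sets had a smaller p. When arrays were weighted by their estimated quality, MtnD passed both in IH against NC (log2 fold change 0.77, adjusted p = 0.0490) and in CH against IH (-1.07, adjusted p = 0.0202). That setting called 159 and 272 probe sets in these comparisons, beside 0 and 7 without weights, and it gave IH array 3 a weight of 5.50 and IH array 2 a weight of 0.253.

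MtnC, a second metallothionein, had its smallest unadjusted p in CH against NC. Counted from the smallest p of all probe sets in that comparison, it ranked 656. Its signal was 9867, 14323 and 10990 on the CH arrays, against 16229, 21582 and 21694 on the NC arrays. All CH arrays lay below all NC arrays, which 5.39% of probe sets did in this direction. The means were 11726 ± 2318 in CH and 19835 ± 3123 in NC (SD, n = 3 each). The log2 fold change was -0.76 with a standard error of 0.30, or 0.589-fold (unadjusted p = 0.0348, adjusted p = 0.996 from limma). MtnC is in the list of altered genes that the study drew from these arrays for CH, so this direction too is not independent evidence. In IH the signal spread from 12000 on array 1 to 25956 on array 2, with 19819 on array 3, and it overlapped both other treatments. The log2 difference of CH from IH was -0.66 (95% interval -1.36 to 0.03). That of IH from NC was -0.10 (95% interval -0.79 to 0.59). The interval of CH against IH includes no difference, so a change of MtnC particular to CH is not shown.

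MtnA, the most studied fly metallothionein and a strongly copper-induced gene, showed no difference beyond the spread between arrays. Its signal was 74336, 89841 and 85399 in CH and 72015, 102258 and 90765 in IH, against 76581, 92044 and 81375 in NC. The 3 treatments covered nearly the same range. The log2 fold change was -0.0027 in CH against NC (95% interval -0.43 to 0.42) and 0.07 in IH against NC (95% interval -0.35 to 0.50). This probe set was near the bright end of the array, where only 38 to 95 probe sets were brighter. Whether the signal still follows RNA amount at that brightness was not tested.

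MtnB, a metallothionein known for its role in cadmium resistance, varied more within treatments than between them. The signal was 2501, 1959 and 2067 in CH and 1506, 2520 and 2841 in IH, against 1632, 2613 and 1527 in NC. The brightest array was 1.89 times the dimmest within IH, 1.71 times within NC and 1.28 times within CH. The log2 fold change was 0.21 in CH against NC (95% interval -0.48 to 0.90) and 0.24 in IH against NC (95% interval -0.45 to 0.93). These intervals include both no difference and a change past the fold limit.

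MTF-1, the activator, had overlapping signals in all treatments. It was 4107, 3625 and 3723 in CH and 4238, 3147 and 3485 in IH, against 4093, 3927 and 3137 in NC. The log2 fold change was 0.05 in CH against NC (95% interval -0.37 to 0.47), -0.04 in IH against NC (95% interval -0.46 to 0.38) and 0.08 in CH against IH (95% interval -0.34 to 0.50). MTF-1 is regulated in the cell largely through its binding of metal and its entry into the nucleus, which an mRNA signal does not measure.

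**Figure D2:**
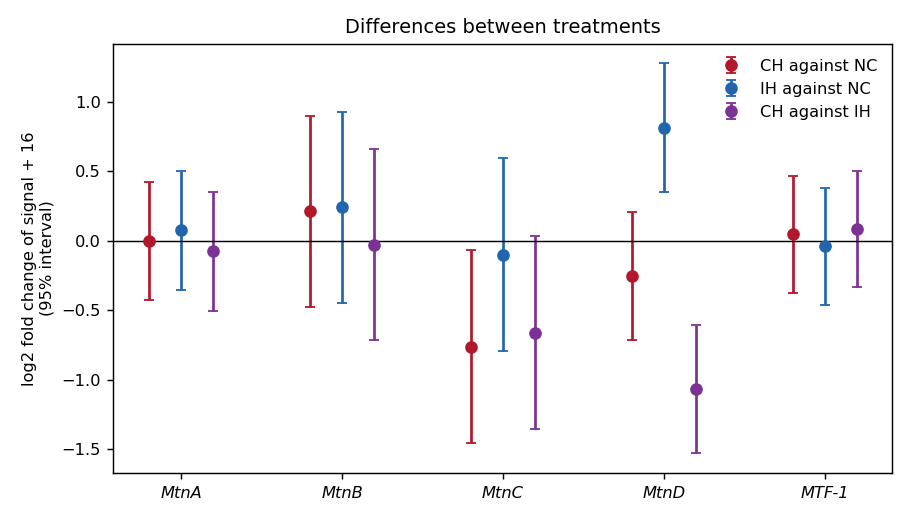
Log2 fold change of each member (y axis, on signal + 16) in 3 comparisons (CH against NC, IH against NC, CH against IH), with the 95% interval of the limma fit as bars. The interval lies off 0 for MtnD in IH against NC (0.35 to 1.27) and in CH against IH (-1.53 to -0.61), and for MtnC in CH against NC (-1.46 to -0.07), before any adjustment for the number of probe sets.

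The metallothionein signals also followed the array number within treatments. MtnA, MtnC and MtnD were each dimmest on array 1 of CH, of IH and of NC, and MTF-1 was brightest on array 1 of all 3 treatments. For MtnC, array 1 had 0.780 of the average of arrays 2 and 3 in CH, 0.524 in IH and 0.750 in NC. MtnB did not follow this order. The sum of the midgut markers, among them trypsins and Jonah proteases, was also lowest on array 1 of each treatment. No order particular to the gut is shown, because only this marker list was set against array number. The midgut is a main site of metallothionein expression in the fly. Summed over the 8 of 10 listed markers that were measured, their signal was 343809 on array 1 against 463178 and 527170 on arrays 2 and 3 of CH, 279891 against 548673 and 532087 in IH, and 321174 against 464360 and 466931 in NC. No midgut marker was near 0, and the dimmest, Vha100-4, averaged 1437. Between treatments the midgut sums overlapped, at 343809 to 527170 in CH and 279891 to 548673 in IH, against 321174 to 466931 in NC. Differences by array number were not limited to these genes. Over all probe sets, deviations of the arrays numbered 1 from their treatment means correlated at 0.276 to 0.322. Marker sums of neurons (4109 to 8392) and muscle (48900 to 92134) also spread widely within IH. The other marker lists were not compared by array number, nor was the share of all probe sets with this order computed. The 3' minus 5' log2 signal of the Act5C control, a measure of RNA integrity, was likewise highest on array 1, at 2.62 against 2.14 and 2.19 on arrays 2 and 3 of CH, 2.64 against 2.23 and 2.33 in IH, and 2.73 against 1.98 and 2.23 in NC. The same measure of the GAPDH control did not follow this order, at 3.55 against 4.05 and 3.71 in CH, 3.57 against 3.47 and 3.88 in IH, and 3.86 against 3.54 and 3.57 in NC. The part of gut RNA or of RNA integrity in the MtnC and MtnD differences was not tested. A further setting, chosen after seeing the data, left out the 3 arrays numbered 1. The log2 fold change was then 0.72 for MtnD in IH against NC (adjusted p = 0.537 from limma). It was -0.79 for MtnC in CH against NC (adjusted p = 0.747) and -1.06 for MtnD in CH against IH (adjusted p = 0.304). MtnC and MtnD were dimmest on array 1 of all 3 treatments, so this setting does not test gut RNA or RNA integrity.

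**Figure D3:**
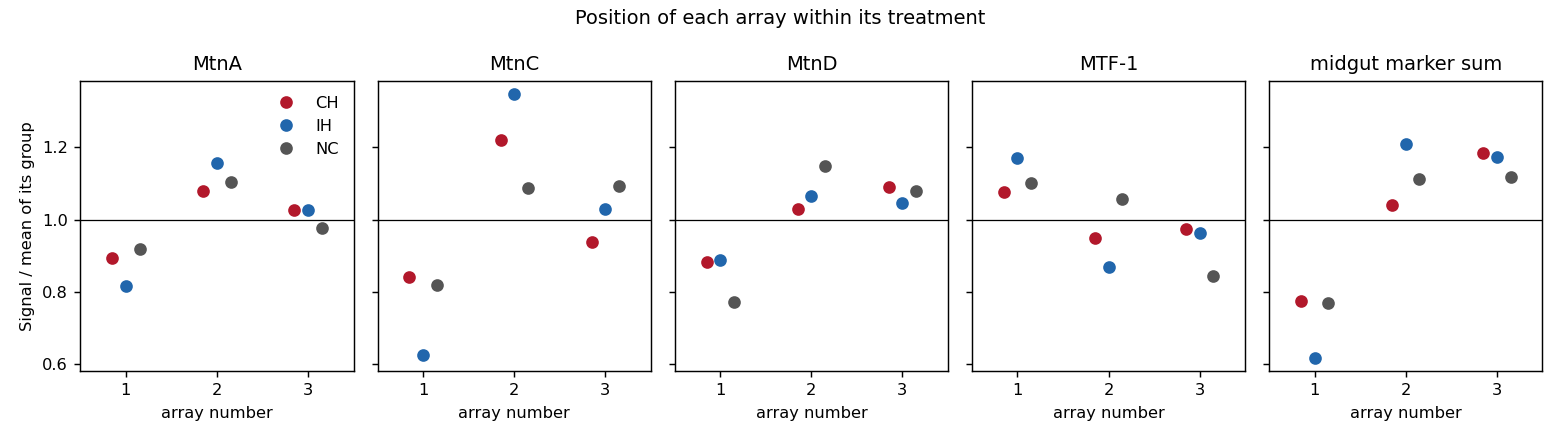
Signal of each array divided by the mean of its treatment (y axis) against the array number (x axis), for MtnA, MtnC, MtnD, MTF-1 and the sum of 8 midgut markers, with CH, IH and NC in different colours. Array 1 lies below 1 in every treatment for the 3 metallothioneins and for the midgut sum (0.617 to 0.773), and above 1 for MTF-1 (1.08 to 1.17).

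For each member, the 3 genes of most similar pattern were taken by Pearson's r over the 9 arrays, among 12095 probe sets of a single gene with a mean signal of at least 100. All these arrays share the differences by array number described above, and r is given as a description. MtnA was closest to CG8907 (r = 0.989), the alkaline phosphatase gene Alp4 (0.981) and Ssk (0.980), which encodes a septate junction protein of the gut. MtnC was closest to Vha100-4 (r = 0.986), a proton pump subunit of the acid-secreting copper cells of the midgut, then to the scavenger receptor gene santa-maria (0.962) and CG31103 (0.961). Vha100-4 was itself one of the 8 midgut markers. Its signal was 1038, 1293 and 1105 in CH, against 1449, 1773 and 1665 in NC, and its log2 fold change was -0.50 (standard error 0.23, adjusted p = 1.00 from limma). Its CH arrays lay below its NC arrays without overlap, as for 5.39% of all probe sets. Because its high r to MtnC comes from these same arrays, the shared direction is not independent evidence. Vha100-4 was 1 of 2 midgut markers below 0 in CH against NC, and the other 6 lay above.

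MtnD was closest to CG9837 (r = 0.948), kar (0.939) and CG13659 (0.933). The signal of CG13659 was 828, 1064 and 1094 in CH and 1748, 3043 and 2405 in IH, against 1194, 1231 and 1130 in NC. Its IH arrays lay above all others, as those of MtnD did, and its CH arrays lay below the NC arrays. CG13659 was picked for its r to MtnD on these same arrays, so the shared pattern follows from that choice. Of all probe sets, 2.63% lay higher in IH than in NC without overlap, and 2.79% lower in CH than in IH. In CH against NC 5.39% lay lower. The closest to MtnB were CG42663 (0.986), CG2816 (0.947) and CG5662 (0.927), and to MTF-1 prc (0.980), which encodes an extracellular matrix protein of the heart, PTP-ER (0.929) and fog (0.928).

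The other genes of copper and zinc handling were taken as a list of 28, of which 27 had a probe set. It was written with earlier results of these data known, and its genes share the same arrays. Its counts beside the background are therefore a description and not independent evidence. The list holds the copper importers of the Ctr1 family, the copper exporter ATP7, copper chaperones, zinc exporters of the ZnT family, zinc importers of the Zip family and related genes. By the limits above 0 of 27 were called in CH against NC, 0 in IH against NC and 0 in CH against IH. The median log2 fold change was -0.12 in CH against NC, with 6 of 27 above 0, where 9711 of all 18769 probe sets were above 0. In IH against NC it was -0.03, with 11 of 27 above 0, where 8501 of all 18769 were. Without regard to p, all CH arrays lay below all NC arrays for 8 of 27 (29.6%, where 5.39% of all probe sets did) and above them for 3 of 27 (11.1%, background 7.13%). The 8 were Zip42C.1, Zip89B, ZnT77C, Zip102B, ZnT86D, Ccs, Zip48C and Atox1, with log2 fold changes of -1.89 to -0.12. The 3 above were Ctr1B, ZnT33D and Zip88E, at 0.89, 0.29 and 0.22. In IH 1 of 27 lay above NC (Zip89B, 3.7%, background 2.63%) and 1 below (Ccs, 3.7%, background 4.03%).

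Zip42C.1, a zinc importer gene, had a signal of 46.8, 26.7 and 62.6 in CH and 162, 60.4 and 19.3 in IH, against 282, 200 and 152 in NC. The log2 fold change was -1.89 in CH (standard error 0.55, adjusted p = 0.726 from limma) and -1.50 in IH (standard error 0.55, adjusted p = 1.00), and in both it was the 1 listed gene lower by the unadjusted p and the other limits (3.7% of the list, background 1.33% in CH and 1.92% in IH). These are dim signals, and IH array 1 overlapped NC. The value in IH was -0.92 without IH array 3 and -2.33 with array weights (adjusted p = 0.051), and the value in CH was -2.23 with 1 added before the log and -1.44 with 50 added. Zip89B, another zinc importer gene, resembled MtnD in its order of treatments. Its signal was 516, 889 and 865 in CH and 1193, 1227 and 1228 in IH, against 947, 1034 and 1001 in NC. The CH arrays were the lowest and the IH arrays the highest, without overlap, whereas the CH arrays of MtnD overlapped NC. Singly, 5.39% of all probe sets lay lower in CH than in NC without overlap, and 2.63% higher in IH than in NC. In CH against IH 2.79% lay lower. The log2 difference of Zip89B in CH from IH was -0.71 (standard error 0.22, adjusted p = 0.744 from limma). Without CH array 1, the dimmest, this difference was -0.46, and the log2 fold change of CH against NC was -0.18, beside -0.43 with it.

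ZnT77C, a zinc exporter gene, averaged 1019 ± 56.1 in CH and 1365 ± 109 in NC (SD, n = 3 each), a log2 fold change of -0.41 (adjusted p = 0.956 from limma). Zip102B had 2222 ± 179 in CH and 2947 ± 305 in NC (SD, n = 3 each), a log2 fold change of -0.40 (adjusted p = 1.00 from limma). Ctr1B, a copper importer gene that MTF-1 activates when copper is scarce, was named after its values were seen. Its signal was 161, 121 and 161 in CH and 169, 44.8 and 196 in IH, against 98.6, 112 and 30.0 in NC. The CH arrays lay above the NC arrays, and the log2 fold change of 0.89 had a standard error of 0.54 (adjusted p = 1.00 from limma).

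**Figure D4:**
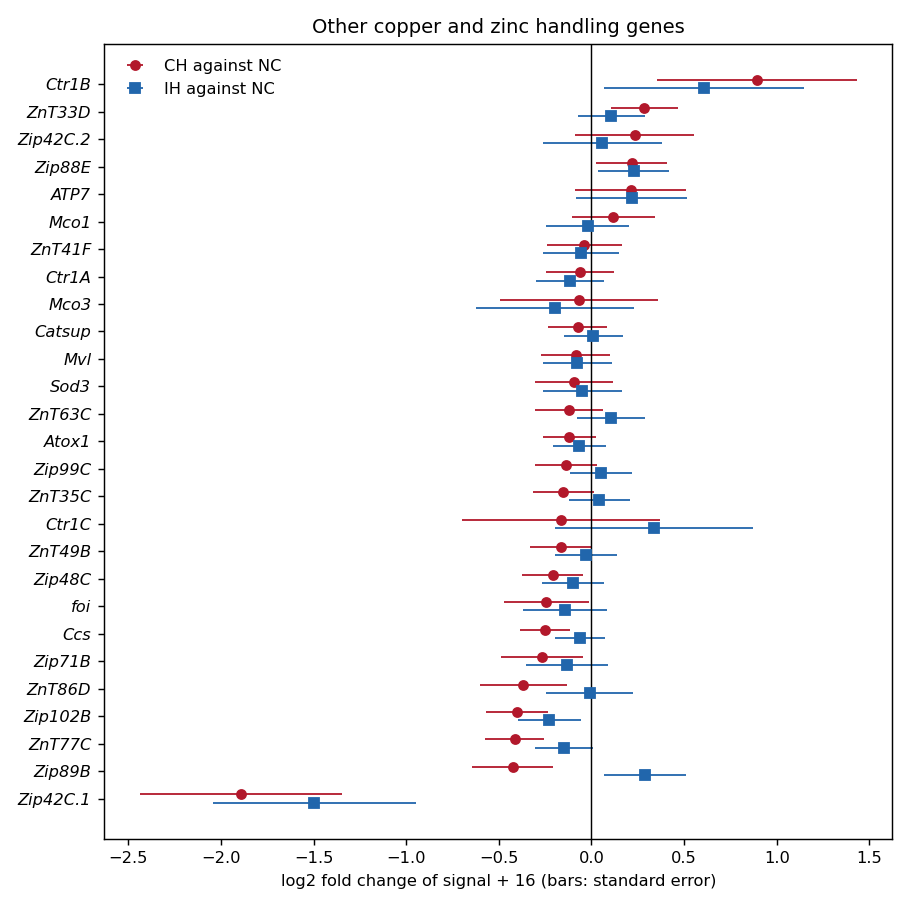
Log2 fold change (x axis, on signal + 16, bars for 1 standard error) of 27 other copper and zinc handling genes in CH against NC and in IH against NC, ordered by the value in CH. In CH 6 genes lie above 0 and 21 below, where 9711 of all 18769 probe sets lie above 0. The values at both ends, -1.89 for Zip42C.1 and 0.89 for Ctr1B, come from dim signals.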

How the data were processed

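The authors scanned 9 arrays and processed them in the affy package of Bioconductor, with options not stated in the methods or labels. The mean of each array, trimmed by 2% at each end, was 2500 to 2500.1, while medians ran from 594 to 823. The values were thus scaled to a common trimmed mean and not to a common distribution. Each deposited value is a normalized linear intensity of 1 probe set. No per-sample column was left unused. An array gives no read depth, and 3 arrays per group limit the precision. After 183 Affymetrix control probe sets were left out, log2(signal + 16) was fitted with limma 3.58.1 in R 4.3.3 over all 9 arrays, with 1 coefficient per group. The limits on false discovery rate, fold and direction follow the study's methods, and limma took the place of VAMPIRE. The added 16 understates the changes of dim probe sets. Intervals use 8.19 degrees of freedom. The platform annotation gave 1 gene symbol to 13647 probe sets, several to 402 and none here to 4720. Names were updated through RefSeq, which held 11894 of the 11983 gene identifiers.

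Every member probe set was named, with the 3 genes of smallest p in CH and in IH from the copper and zinc list, and the 3 genes of highest r to each member. Where a listed gene had several probe sets, the brightest stood for it. The members and lists were chosen with earlier results of these data known. The procedure was run on simulated data with independent noise, which lack the likeness between same-numbered arrays described below. The pass limit of that run concerned the error of the fold changes and not the calls. The alternatives were other samples in the fit, a replicate block, filters, scalings, array weights, added values and limits, and each array left out. No sequences are shown.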

Additional observations from a re-analysis of the deposited data

Results flagged for a closer look

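Among the members and the named copper and zinc genes, MtnD was flagged because all 3 CH arrays lay below the NC mean while all 3 IH arrays lay above it. The log2 fold changes were -0.26 in CH against NC and 0.81 in IH against NC, and the difference between them, tested as CH against IH, was -1.07 (unadjusted p = 6.58e-04, adjusted p = 0.260 from limma). Zip89B did the same, with -0.43 in CH and 0.29 in IH, and a difference of -0.71 (unadjusted p = 0.0116, adjusted p = 0.744 from limma). Without CH array 1, Zip89B had -0.18 in CH and a difference of -0.46. Neither difference passed over all probe sets. The CH arrays of MtnD overlapped the NC range, and the limma interval of CH against NC was -0.72 to 0.21. A lower MtnD signal in CH is therefore not shown. Zip89B was named for its p in IH against NC on these same arrays, so its pattern is not independent evidence. The share of all probe sets with this pattern was not computed.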

How the results depend on the processing

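With array weights, the count of members called became 1 in IH against NC and 1 in CH against IH, MtnD in both. With an unadjusted p, 1 member was called in each of the 3 comparisons, and so was 1 copper or zinc gene. All other settings gave 0 called members. MtnD and MtnC kept their direction throughout, except MtnC in IH against NC, which ranged from -0.35 to 0.21 with 1 array left out (0.21 without IH replicate 1) and was 0.068 without the 3 arrays numbered 1, a setting chosen after seeing the data. MtnD ranged from 0.64 to 0.92 in IH and from -1.15 to -0.98 in CH against IH with 1 array left out. Its adjusted p over the settings ran from 0.0490 to 1.00 in IH and from 0.0202 to 0.622 in CH against IH. Small values turned. MtnA in CH was 0.0089 with array weights, 0.017 without the arrays numbered 1 and -0.062 to 0.076 with 1 array left out; in IH it was -0.035 with quantile normalization and -0.039 to 0.21 with 1 left out; in CH against IH, -0.22 to 0.037. MTF-1 was -0.072 to 0.12 in CH and -0.16 to 0.057 in IH with 1 left out, -0.011 to 0.20 in CH against IH, and, centred on the median, 0.043 in IH and -0.041 in CH against IH. MtnB in CH against IH was -0.30 to 0.15. Zip42C.1 in CH against IH was 0.57 with array weights, 0.16 without the arrays numbered 1 and -0.97 to 0.20 with 1 left out. The causes were not tested. Arrays share replicate numbers, and deviations of same-numbered arrays correlated at 0.0918 to 0.322, over 0.1 in 7 of 9 pairs. All 9 arrays correlated best with their own number in both other groups, so same-numbered arrays were more alike. The main fit had no replicate block because the study's methods name none, and its p-values leave this likeness out. With a replicate block, 0 members were called in each comparison (MtnD in IH 0.81, adjusted p = 0.568), and over all probe sets 1 was called in CH against NC and 0 in the other comparisons.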
